A study of Mus musculus with 40 samples.

Results

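The genes described here encode the epidermal growth factor (EGF) receptor family and its ligands in mouse mammary tissue. They were taken by name, as the 4 receptors Egfr, Erbb2, Erbb3 and Erbb4 and the 6 ligands Egf, Ereg, Btc, Hbegf, Tgfa and Nrg1, which makes 10 of the 18193 genes that the arrays measured under a single symbol.  The tissue came from 40 mice in 8 groups of 5, with 1 array per mouse. The group called wild type held glands of BalbC mice, and all other groups held tissue of the WAP-TNP8 line, in which the WAP promoter, active in milk-secreting mammary epithelium, drives the SV40 T/t-antigen once a lactation has taken place. Glands before activation carried the transgene and came from mice without a lactation. The groups 1M, 2M, 3M, 4M and 5M were glands taken that number of months after lactation had activated the transgene. The last group held invasive tumours from mice at 4 or 5 months. Wild type glands and glands before activation together formed the 10 controls. No group was labelled as wild type after a lactation, so an active transgene and a past lactation cannot be told apart in any comparison with the controls. Ages are not given in the sources used here.

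Receptors of this family are transmembrane tyrosine kinases that pair with each other once a ligand has bound. Egfr binds Egf, Tgfa, Hbegf, Btc, Ereg and Epgn, while Erbb3 and Erbb4 bind Nrg1, and Nrg4 binds Erbb4. Erbb2 has no known ligand and acts as the preferred partner, and Erbb3 has little kinase activity of its own. The ligands are made as membrane precursors that proteases of the ADAM family cut free. In the mammary gland the pathway is known for its part in ductal growth at puberty and in milk-secreting development, and ERBB2 is an established driver of a subset of human breast cancers.

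Levels are log2 values of the deposited intensities, and each gene is represented by its brightest probe set unless another is named. A line was set at a level of 5, and the order of levels under it is to be read with caution. The lowest level on any array was 1.02. Egfr, Erbb2, Erbb3, Btc, Hbegf and Tgfa had a mean over the 40 arrays above that line, and Erbb4, Egf, Ereg and Nrg1 a mean below it. The 10 genes had 21 probe sets. A gene passed where its adjusted p in limma was at most 0.05 with the adjustment over all 45037 tested probe sets, and the study's threshold was an adjusted p of at most 0.01 with a change of at least 5-fold. Array medians of the deposited intensities lay between 18.96 and 24.35. Luminal epithelial markers averaged 10.60 to 12.92 on every array, and 8 of 8 milk genes passed as higher both at 2M and 3M and at 4M and 5M. A spike-in control added before labelling, Dap, was low on 7 arrays, among them 4 of the 5 arrays of 5M, and lay between 8.42 and 12.60 on the other 33. Skeletal muscle markers averaged above 12 on 4 arrays (before activation replicate 4, 4M replicate 5, and 5M replicates 2 and 4), and T cell markers above 6 on 14 arrays, 6 of them from 2M and 3M.

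Promoter stretches are given for genes that went opposite ways in the tumours, from 250 bases before to 50 bases after the annotated start. They are those of Tgfa (chr6:86194972-86195271, plus strand), Egfr (chr11:16751953-16752252, plus strand), Btc (chr5:91402945-91403244, minus strand) and the further ligand gene Epgn (chr5:91027267-91027566, plus strand), which lies near Btc. All come from RefSeq on GRCm38.p6, read 5′ to 3′ along the gene. Capitals mark matches to the GC box GGGCGG or the TATA box TATAAA, and a match on the reverse strand shows as the complement.
Tgfa: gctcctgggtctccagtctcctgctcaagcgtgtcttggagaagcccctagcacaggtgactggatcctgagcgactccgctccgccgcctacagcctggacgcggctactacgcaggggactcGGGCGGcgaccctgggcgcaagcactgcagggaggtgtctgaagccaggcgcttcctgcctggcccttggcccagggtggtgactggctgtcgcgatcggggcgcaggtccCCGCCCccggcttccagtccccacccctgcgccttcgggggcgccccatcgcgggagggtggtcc
Egfr: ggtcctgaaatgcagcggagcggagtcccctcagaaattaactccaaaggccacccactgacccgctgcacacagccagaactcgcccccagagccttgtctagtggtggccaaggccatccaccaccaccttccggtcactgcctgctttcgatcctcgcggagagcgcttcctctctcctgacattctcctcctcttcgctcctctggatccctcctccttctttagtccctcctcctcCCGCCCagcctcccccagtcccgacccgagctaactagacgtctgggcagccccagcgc
Btc: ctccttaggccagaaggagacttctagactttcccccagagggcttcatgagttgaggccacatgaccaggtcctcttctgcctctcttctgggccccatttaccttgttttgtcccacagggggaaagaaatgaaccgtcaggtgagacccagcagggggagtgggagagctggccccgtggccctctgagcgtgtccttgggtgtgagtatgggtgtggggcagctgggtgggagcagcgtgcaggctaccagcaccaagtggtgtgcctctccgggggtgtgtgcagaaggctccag
Epgn: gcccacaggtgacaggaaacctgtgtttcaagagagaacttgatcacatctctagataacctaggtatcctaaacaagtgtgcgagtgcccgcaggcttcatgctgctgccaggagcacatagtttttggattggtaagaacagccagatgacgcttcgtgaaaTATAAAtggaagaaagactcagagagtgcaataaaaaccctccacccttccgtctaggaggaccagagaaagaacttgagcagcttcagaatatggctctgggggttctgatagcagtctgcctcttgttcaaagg
Tgfa held 2 GC boxes, 1 on each strand, and Egfr held 1 on the reverse strand. Btc held no match to either motif, and Epgn held 1 TATA box on the forward strand. The AP-1 motif TGANTCA, which was searched on both strands as well, was in none of the 4 windows. Of 32851 such windows of the same length, 35.7% held a GC box, 13.6% a TATA box and 7.81% the AP-1 motif. The share of G and C was 70.7% for Tgfa, 62.3% for Egfr, 60.3% for Btc and 47.3% for Epgn. On chromosome 5 the order of protein-coding genes is Mthfd2l, Epgn, Ereg, Areg, Btc and Parm1, so 4 ligand genes lie side by side, of which Areg was not analysed here.

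Among the receptors, Erbb2 and Erbb3 passed as higher than controls in late glands and in tumours. Egfr was lower in tumours, and Erbb4 stayed near the lowest values in all groups. For Erbb2, the wild type glands measured 5.79, 6.15, 5.54, 6.33 and 6.62, and the glands before activation 6.70, 6.16, 5.76, 6.08 and 6.43. The glands of 4M measured 7.39, 8.10, 7.26, 7.08 and 6.71, and those of 5M 6.69, 7.39, 7.86, 6.93 and 7.32. The tumours measured 7.84, 7.71, 7.74, 8.98 and 7.83. All 5 tumours lay above all 10 controls, and so did the late glands apart from the lowest of them, at 6.69 against a highest control of 6.70. The difference was 1.12 ± 0.18 (SE, n = 10 and 10) at 4M and 5M, which is 2.17-fold (adjusted p = 0.000339), and 1.86 ± 0.23 (n = 5 and 10) in tumours, which is 3.64-fold (adjusted p = 1.84e-05). At 2M and 3M it was 0.24 ± 0.20 and did not pass (95% interval -0.17 to 0.65). In order of mean level the groups ran wild type 6.09, before activation 6.22, 2M 6.35, 3M 6.45, 1M 6.57, 5M 7.24, 4M 7.31 and tumours 8.02, with SDs from 0.36 to 0.55, and every neighbouring pair in that order overlapped. The slope from 2M to 5M was 0.35 ± 0.10 per month over 20 glands and did not pass (adjusted p = 0.159).

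**Figure D1:**
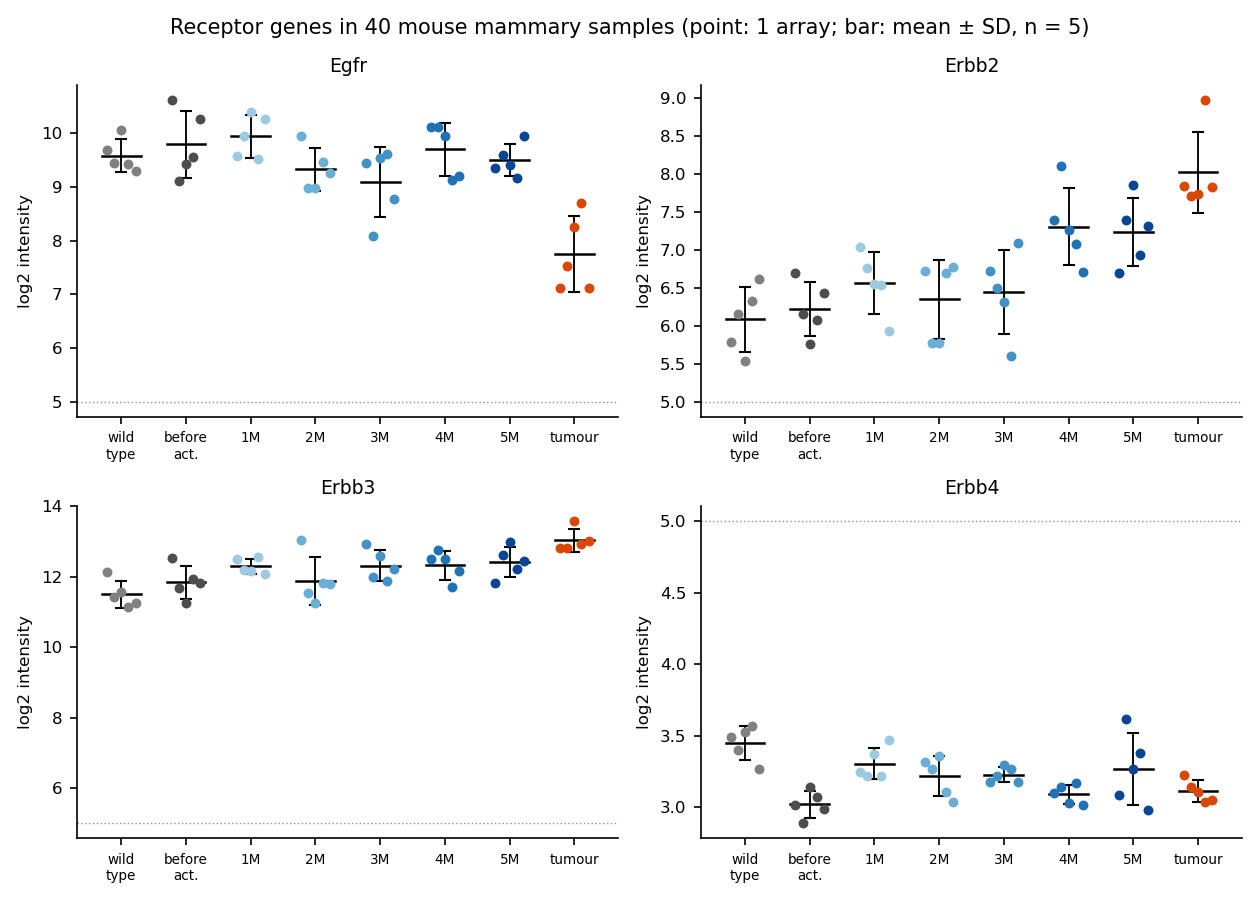
Log2 intensity of the 4 receptor genes (vertical axis, 1 panel per gene) in the 8 groups; points are arrays, bars the mean ± SD of 5 arrays, and the dotted line marks a level of 5. Erbb2 rose from a mean of 6.09 in wild type glands to 8.02 in tumours, Egfr stood at 7.74 in tumours against 9.10 or more in all other groups, and all Erbb4 values lay under 5.

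Erbb3, the receptor that supplies docking sites for PI3-kinase, moved in the same direction by less. Controls ran from 11.13 to 12.54 with a median of 11.63, the glands of 4M measured 12.50, 12.75, 12.49, 11.70 and 12.16, and those of 5M 11.83, 12.61, 12.98, 12.22 and 12.44. The tumours measured 12.82, 12.81, 13.58, 12.94 and 13.02. Every tumour exceeded every control, while late glands and controls overlapped. The difference from controls was 0.70 ± 0.18 at 4M and 5M (1.62-fold, adjusted p = 0.0139) and 1.36 ± 0.22 in tumours (2.58-fold, adjusted p = 0.000182). At 2M and 3M it was 0.43 ± 0.23 (95% interval -0.04 to 0.91) and at 1M 0.63 ± 0.21 (adjusted p = 0.121), and neither passed. Group means of Erbb3 were 11.50 in wild type glands, 11.84 before activation, 12.30 at 1M, 11.89 at 2M and 12.32 at 3M. They were 12.32 at 4M, 12.42 at 5M and 13.04 in tumours, so 1M and 3M stood close to the late glands. The Erbb3 call in late glands was lost under some alternatives, given below. The second probe set of Erbb3, with a mean under 5, passed in no comparison.

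Markers of luminal epithelium in general moved with both genes. Their mean ran from 10.60 to 12 in controls, from 11.57 to 12.92 at 4M and 5M and from 12.15 to 12.84 in tumours, and 6 of the 10 markers passed as higher in either comparison, against 1 lower at 4M and 5M and 2 lower in tumours. Markers of hormone-sensing luminal cells went the other way. Of 6 measured, 0 were higher and 4 lower at 4M and 5M, and 0 were higher and 5 lower in tumours. Their mean ran from 8.69 to 10.99 in controls and from 5.03 to 6.28 in tumours. In whole tissue, more cells of a type and more RNA per cell cannot be told apart, and the part of the epithelial share in the Erbb2 and Erbb3 differences was not tested. Of 6 genes that neighbour ERBB2 in the human amplified region, 3 passed as higher in tumours, against 18.8% of all tested probe sets. They were Pgap3 (1.59 ± 0.28, with a mean level of 4.51 in tumours), Stard3 (0.65 ± 0.17) and the adaptor Grb7 (0.90 ± 0.27). None of the 6 passed at 4M and 5M.

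Egfr itself was lower in tumours in the 3 of its 7 probe sets that had a mean above the line. On the brightest the tumours measured 7.12, 7.52, 8.26, 8.70 and 7.12, whereas the controls ran from 9.11 to 10.63 with a median of 9.50. No tumour reached the lowest control. The difference was -1.95 ± 0.30 from controls (3.86-fold lower, adjusted p = 0.000115) and -1.86 ± 0.27 from the glands of 4M and 5M (3.62-fold lower, adjusted p = 0.000172). The next brightest probe sets gave -1.93 ± 0.40 and -1.73 ± 0.19 against controls and -2.04 ± 0.45 and -1.24 ± 0.19 against 4M and 5M, and all passed, although tumours and controls overlapped on the former.

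In glands the Egfr probe sets did not give 1 answer. At 2M and 3M the brightest stood at -0.48 ± 0.22 and did not pass (adjusted p = 0.193), while the next brightest passed with -0.48 ± 0.15 (adjusted p = 0.0366). At 4M and 5M the brightest stood at -0.09 ± 0.19, and the dimmest of these passed with -0.49 ± 0.15 (adjusted p = 0.0302). The lowest gland values of the brightest probe set, 8.09 and 8.78, were 3M replicates 2 and 5, both with a T cell marker mean above 6, and without the arrays high in T cell markers the difference at 2M and 3M was -0.09 ± 0.24. The 1M glands had the highest mean of all groups, 9.94 ± 0.40 (SD, n = 5), and exceeded 2M and 3M by 0.73 ± 0.26, which did not pass (adjusted p = 0.203).

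Stromal and fat markers fell alongside Egfr in tumours. Of the adipocyte markers, 9 of 9 passed as lower, with list means of 5.94 to 10.13 in tumours against 13.09 to 14.29 in controls. Of the fibroblast markers, 7 of 8 passed as lower (10.38 to 11.46 against 13.14 to 14.17), and of the basal and myoepithelial markers 7 of 8 (6.80 to 7.89 against 10.18 to 11.60). The part of these cell types in the Egfr difference was not tested.

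Erbb4, the second neuregulin receptor, lay between 2.89 and 3.62 on all arrays, under the line, and passed in no comparison. Its values before activation (3.02, 2.89, 3.14, 3.07 and 2.99) lay below all wild type values (3.49, 3.40, 3.53, 3.57 and 3.27), with a difference of -0.43 ± 0.07 and an adjusted p of 0.106. No probe set passed in that comparison, so that 0% were higher and 0% lower among those tested. However, 15477 of 45037 probe sets had an unadjusted limma p under 0.05, the methods' t-test passed 11115 after adjustment, and 8676 had an adjusted limma p of at most 0.11. Of those 8676, 81.6% had a mean level under 5 and 90.1% were lower before activation. The median difference was -0.06 over the 23487 probe sets under the line and 0.03 over the 21550 above it. The small difference of Erbb4, and that of Nrg1 (-0.24 ± 0.08, adjusted p = 0.107), had the direction of 81.5% of all probe sets under the line.

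Among the 6 ligands, Hbegf, Tgfa and Ereg were higher and Btc was lower in tumours. Tgfa alone passed as higher in late glands in the main comparison, a call lost under some alternatives given below. Hbegf encodes heparin-binding EGF-like growth factor. The tumours measured 10.39, 10.24, 7.52, 11.88 and 7.22 on its brightest probe set, and the controls ran from 4.50 to 5.80 with a median of 5.52. All tumours lay above all controls, but 3 of them lay over 2 log2 units above the other 2. The difference was 4.08 ± 0.62 from controls (16.9-fold, adjusted p = 0.000109) and 3.87 ± 0.59 from 4M and 5M (14.6-fold, adjusted p = 0.000245), and the latter did not pass by the methods' t-test (adjusted p = 0.0733). The second probe set gave 10.29, 10.77, 8.14, 12.20 and 7.77 in tumours and a difference of 4.88 ± 0.55 from controls. Since control levels were near the line, the size of these folds depends on the lowest values the arrays gave.

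In glands Hbegf did not pass on either probe set. On the brightest, the glands of 2M, 4M and 5M lay between 5.45 and 5.78, and the difference at 4M and 5M was 0.21 ± 0.13 (95% interval -0.06 to 0.48). On the second probe set that difference was 0.43 ± 0.15 (95% interval 0.13 to 0.74, adjusted p = 0.0506), with values up to 6.12 at 4M, and the mean of both probe sets passed at 0.32 (adjusted p = 0.0292). A single gland of 3M, replicate 1, reached 10.08, and 9.51 on the second probe set, the range of the tumours, while the other 3M glands measured 5.61, 5.64, 5.79 and 6.31. The same array measured 7.78 for Tgfa. Its muscle marker mean was 3.1, and its luminal marker mean was 12.3, against 11.6 to 12.4 in the other 3M glands. With that gland included, the difference at 2M and 3M was 0.77 ± 0.45 (95% interval -0.17 to 1.71), and without it 0.33 ± 0.15 (adjusted p = 0.206).

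**Figure D2:**
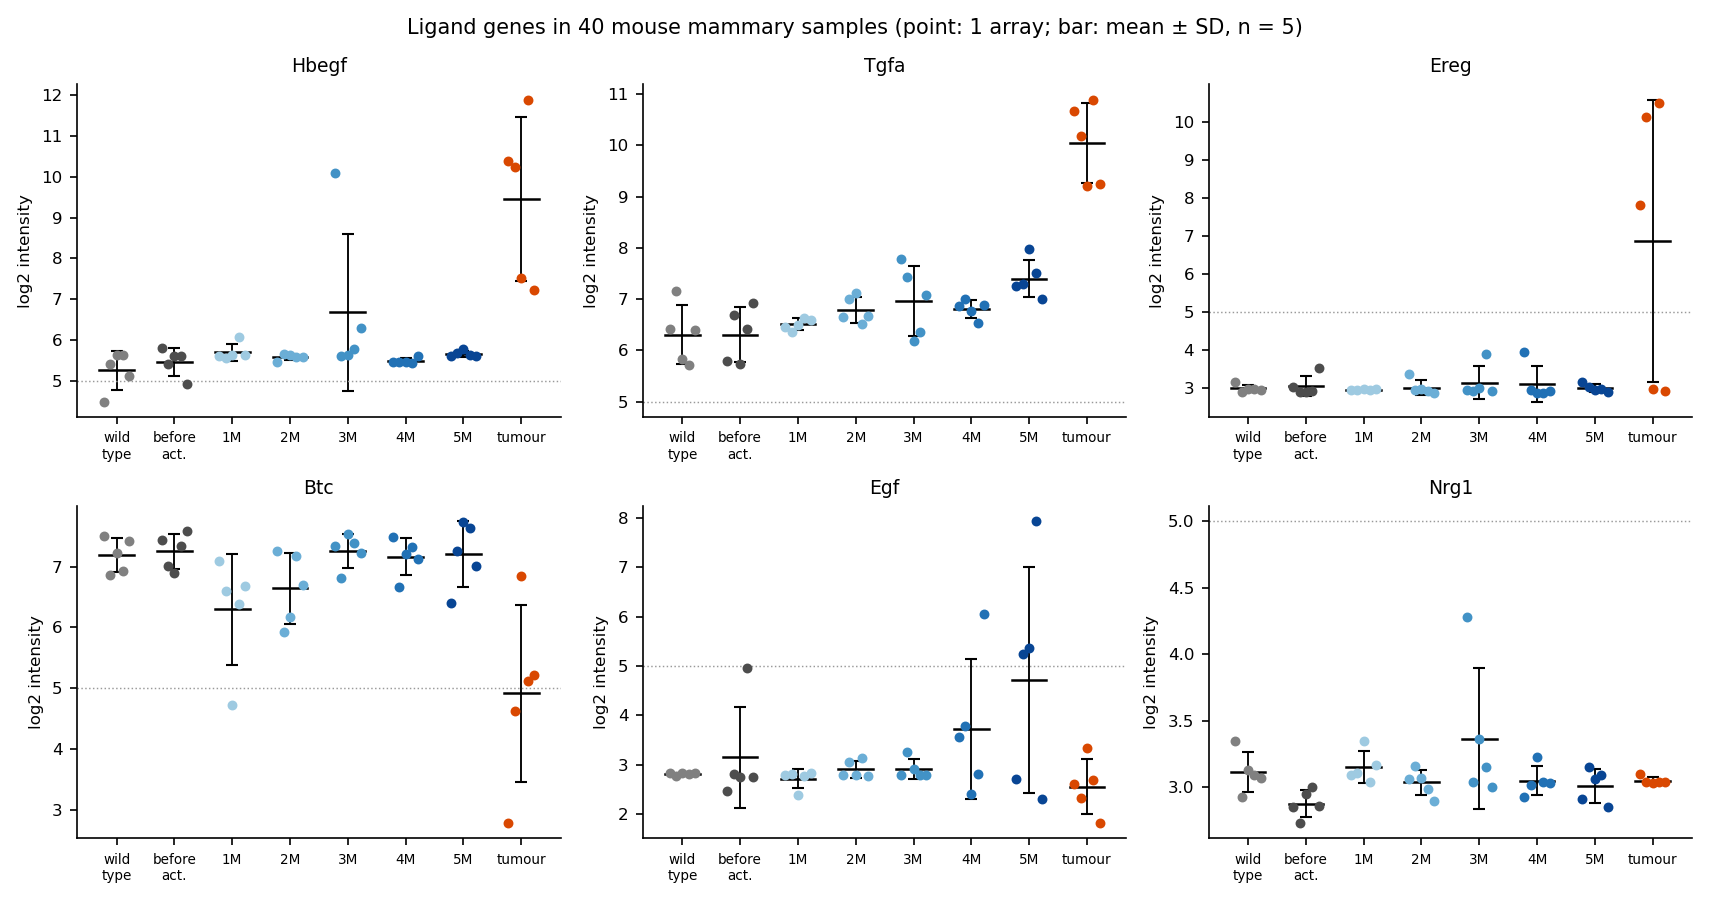
Log2 intensity of the 6 ligand genes (vertical axis, 1 panel per gene) in the 8 groups; points are arrays, bars the mean ± SD of 5 arrays, and the dotted line marks a level of 5. Hbegf and Tgfa were higher in all 5 tumours than in any control, Ereg in 3 of 5, and the isolated high Hbegf point at 3M is replicate 1 at 10.08.

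Tgfa, transforming growth factor alpha, measured 10.66, 10.19, 9.21, 10.89 and 9.25 in tumours, whereas no gland of any group exceeded 7.97. The glands of 5M measured 7.25, 7.29, 7.97, 7.50 and 7.00, those of 4M 6.87, 7.00, 6.76, 6.54 and 6.89, and the controls ran from 5.72 to 7.16 with a median of 6.40. Tumours were thus separate from all glands, while late glands and controls overlapped. The difference was 3.73 ± 0.32 in tumours against controls (13.3-fold, adjusted p = 6.63e-07), 2.94 ± 0.29 in tumours against 4M and 5M (7.65-fold, adjusted p = 7.88e-06), and 0.80 ± 0.20 at 4M and 5M against controls (1.74-fold, adjusted p = 0.0112). At 2M and 3M it was 0.57 ± 0.22 (95% interval 0.11 to 1.04, adjusted p = 0.109). In order of mean the groups ran before activation and wild type 6.31, 1M 6.51, 2M 6.79, 4M 6.81, 3M 6.97, 5M 7.40 and tumours 10.04, and only the step to the tumours left no overlap between neighbours. The other 2 probe sets of Tgfa, both under the line on average, passed in no comparison.

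Ereg encodes epiregulin. In tumours it measured 7.81, 10.11, 2.97, 10.49 and 2.92, so that 3 tumours were far above and 2 within the control range of 2.89 to 3.52. All glands after activation lay between 2.87 and 3.95. The difference in means was 3.84 ± 1.09 from controls (adjusted p = 0.0132) and 3.81 ± 1.10 from 4M and 5M (adjusted p = 0.0196), with 3 of 5 tumours in that direction. A fold from such a level depends on the lowest values the arrays gave and is not given. The difference from controls did not pass by the methods' t-test (adjusted p = 0.213) or against wild type glands alone (adjusted p = 0.0981) or glands before activation alone (adjusted p = 0.129). Without tumour replicate 1, 2 or 4 the difference from 4M and 5M no longer passed, at 3.57, 3.00 and 2.90 with adjusted p-values of 0.0532, 0.0652 and 0.0629.

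Btc, betacellulin, was lower in tumours, which measured 2.78, 4.63, 6.84, 5.12 and 5.22 against 6.87 to 7.58 in controls, with a control median of 7.28. The highest tumour, replicate 3, stood just under the lowest control. The difference was -2.30 ± 0.44 from controls (adjusted p = 0.000874) and -2.27 ± 0.47 from 4M and 5M (adjusted p = 0.00223), where replicate 3 lay within the late glands. With a tumour mean of 4.92, under the line, a fold would depend on the lowest values the arrays gave and is not stated. By the methods' t-test the adjusted p was 0.0837 and 0.114, and neither passed. At 1M the glands measured 7.09, 6.60, 4.73, 6.38 and 6.69, which gave -0.92 ± 0.29 from controls and did not pass (adjusted p = 0.107). The 3 genes whose pattern over the 40 arrays was most like that of Btc among 11041 genes compared were Egflam, Car3 and Lpl, with a Pearson r of 0.84, 0.84 and 0.83. Car3 and Lpl are well known from fat cells, and the adipocyte marker means given above for tumours fell with Btc. Their part in its difference was not tested.

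**Figure D3:**
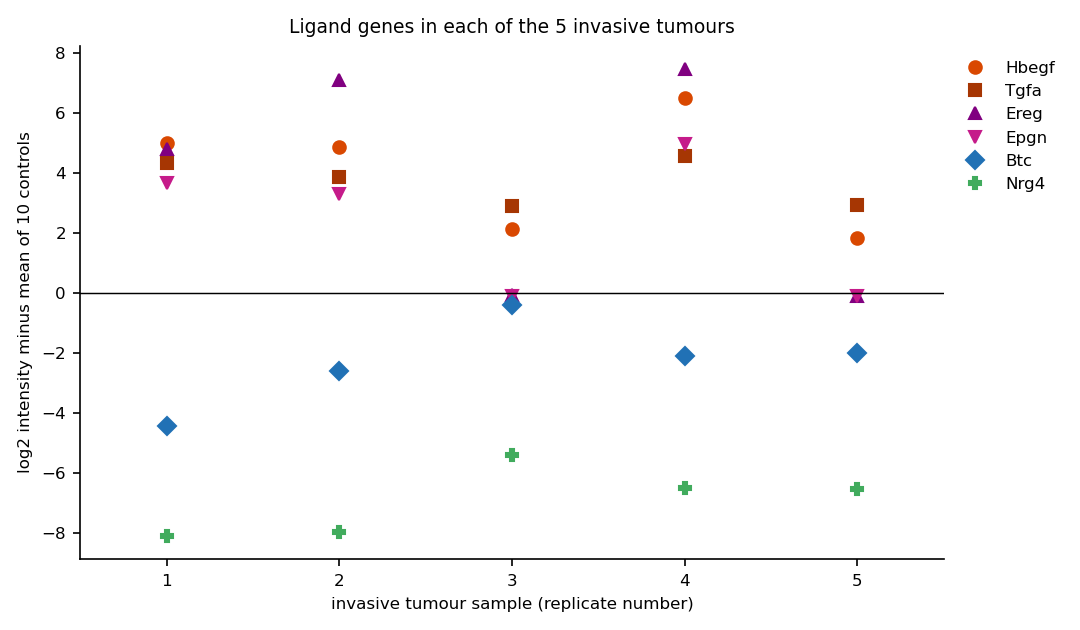
Log2 intensity of 6 ligand genes in each of the 5 tumours, less the mean of the 10 controls for that gene (vertical axis), by tumour replicate (horizontal axis). Replicates 1, 2 and 4 were high in Ereg, Epgn and Hbegf, and replicates 3 and 5 were at the control level for Ereg and Epgn.

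The tumours thus fell into the same sets for several ligands. Replicates 1, 2 and 4 held the 3 highest values of Hbegf, Tgfa and Ereg, and also of the neighbouring ligand gene Epgn, epigen, which measured 5.60, 5.24, 1.86, 6.92 and 1.86 in tumours and 1.83 to 2.66 in controls (2.35 ± 0.69, adjusted p = 0.0153). Over the 40 arrays, Pearson's r was 0.84 between Hbegf and Tgfa, 0.82 between Hbegf and Ereg and 0.77 between Tgfa and Ereg, as a description of points that share arrays and groups. Among the receptors, Erbb2 was highest in replicate 4 and Erbb3 in replicate 3. Egfr was highest in replicate 4 at 8.70 and lowest in replicates 1 and 5, both at 7.12.

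Egf and Nrg1 did not pass in any comparison. Egf, the founding ligand, lay between 1.82 and 3.79 on 35 arrays. The other 5 measured 4.95 (before activation replicate 4), 6.06 (4M replicate 5) and 5.24, 5.37 and 7.93 (5M replicates 2, 3 and 4). The difference at 4M and 5M was 1.24 ± 0.61 (95% interval -0.04 to 2.52, adjusted p = 0.218), and the slope from 2M to 5M was 0.62 ± 0.25 per month (adjusted p = 0.343). Of these 5 arrays, 4 were those with skeletal muscle marker means above 12, namely 13.1, 14.6, 14.9 and 15.2, and the remaining one, 5M replicate 3, had a mean of 7.6. Without those 4 arrays the Egf difference at 4M and 5M was 0.52 ± 0.35. The genes whose pattern was most like that of Egf were Jph2, Tmem38a and Rbm24 (r of 0.87, 0.85 and 0.85), which are known from striated muscle. Nrg1, neuregulin 1, lay between 2.73 and 4.28 on all arrays.

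**Figure D4:**
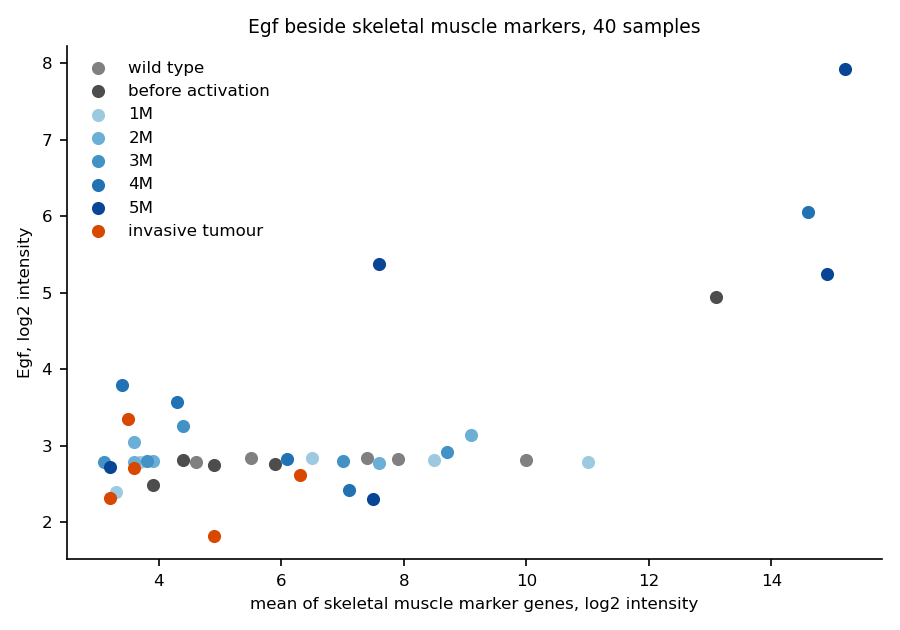
Log2 intensity of Egf (vertical axis) against the mean log2 intensity of 8 skeletal muscle marker genes (horizontal axis); each point is 1 of 40 arrays, coloured by group. The 4 arrays with a muscle mean above 12 measured 4.95 to 7.93 for Egf, and 1 further array, 5M replicate 3, measured 5.37 at a muscle mean of 7.6.

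Counted over the 10 genes, 0 passed at 2M and 3M, 3 were higher at 4M and 5M, while in tumours 5 rose and 2 fell. In the first comparison 2 genes (Egfr and Tgfa) had an unadjusted limma p under 0.05. The methods' t-test passed 0, beside 4427 of 45037 probe sets. By limma 5.36% of all tested probe sets were higher and 6.53% lower. At the study's threshold these shares were 0.528% and 0.0333%, and 0 of the 10 genes passed. At 4M and 5M, 3 genes were higher and none lower by limma, beside 7.80% and 7.02% of all tested probe sets. They are also the only 3 with an unadjusted limma p under 0.05. By the methods' t-test 3 passed, beside 5709 of 45037 probe sets. In tumours the 5 higher and 2 lower genes stood beside 18.8% and 14.4% by limma. The methods' t-test passed 5 of 10, beside 10771 of 45037 probe sets. At the study's threshold Hbegf and Tgfa alone passed, both higher, beside 2.83% higher and 3.93% lower. That count of 2 became 4 without tumour replicate 3 or 5, where Ereg (higher) and Btc (lower) passed as well. It became 1 by the methods' t-test. Without tumour replicate 4, Btc passed in addition, at -2.35 ± 0.50 (adjusted p = 0.00234). The median difference of the 10 genes in tumours was 0.71, against 0.00 over all tested probe sets and 0.08 over those above the line. These comparisons share the control arrays, so their counts are given side by side. Actb, a housekeeping gene, passed in none of the 8 comparisons.

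**Figure D5:**
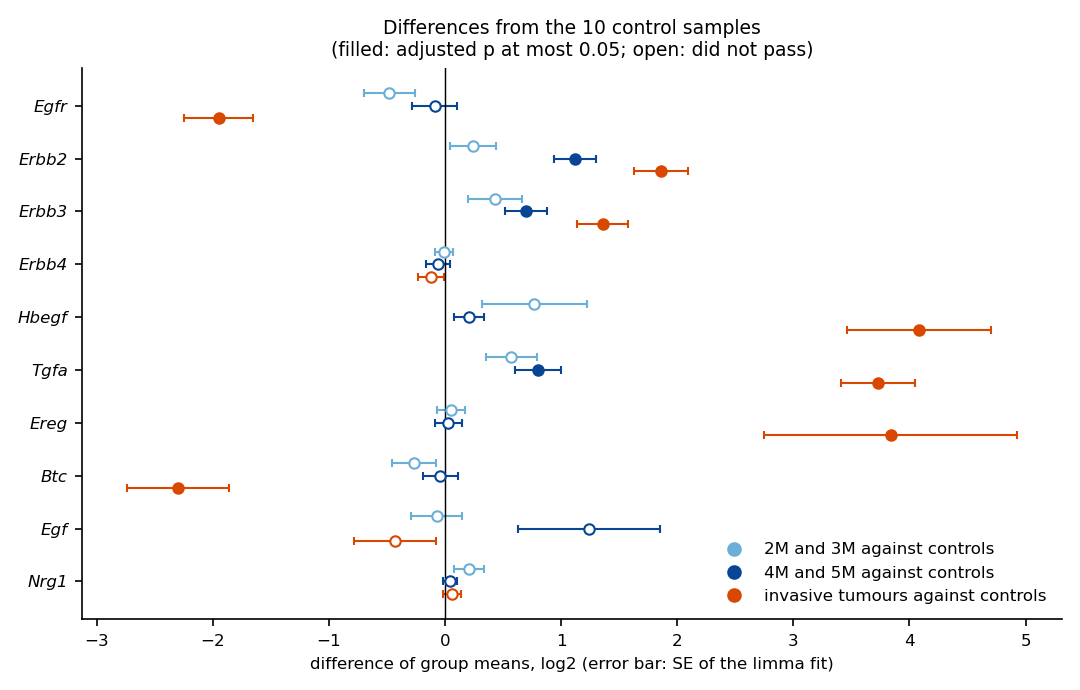
Difference in mean log2 intensity from the 10 controls (horizontal axis, error bars SE) for the 10 genes in 3 comparisons that share those controls; filled points passed at an adjusted p of at most 0.05. Erbb2, Erbb3 and Tgfa were filled at 4M and 5M, and 7 of the 10 genes in tumours, with Egfr and Btc on the lower side.

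Set directly against the glands of 4M and 5M, tumours were higher in Erbb2 (0.75 ± 0.26, adjusted p = 0.0464), Erbb3 (0.67 ± 0.20, adjusted p = 0.0224), Hbegf, Tgfa and Ereg, and lower in Egfr and Btc. That is 5 higher and 2 lower of 10, beside 14.4% and 10.8% of all tested probe sets, and at the study's threshold 2 higher and 0 lower, beside 1.03% and 2.69%, with the same changes of that count. The Erbb2 call was weak, since it no longer passed in 12 of the 15 fits that left out 1 array, where the difference ranged from 0.51 to 0.84. That of Erbb3 was lost without tumour replicate 3 (0.53, adjusted p = 0.0666) and without the arrays high in muscle markers (0.65, adjusted p = 0.0797). At 1M against controls 0 of 10 passed, beside 2.67% higher and 1.18% lower of all tested probe sets by limma. There 2 had an unadjusted limma p under 0.05, and 0 passed by the methods' t-test, beside 1549 probe sets. At 1M against 2M and 3M 0 of 10 passed, beside 0.664% and 0.737% by limma. There 1 had such an unadjusted p, and 0 passed by the methods' t-test, beside 163 probe sets. For before activation against wild type 0 of 10 passed by limma (2 at an unadjusted p under 0.05) beside 0% of all tested probe sets in either direction. By the methods' t-test 1 passed, Erbb4, beside 11115 of 45037 probe sets by that test. For the slope 0 of 10 passed (Erbb2 and Egf at an unadjusted limma p under 0.05), beside 0.0577% of all tested probe sets rising and 0.00888% falling.

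The call of Erbb2 at 4M and 5M passed under all alternatives run, which ranged from 0.97 to 1.22, whereas those of Erbb3 and Tgfa did not. On the arrays with a high Dap spike-in, 6 late glands against 7 controls, the difference was 0.45 ± 0.23 for Erbb3 (adjusted p = 0.317) and 0.59 ± 0.23 for Tgfa (adjusted p = 0.155), and 1.18 ± 0.24 for Erbb2 (adjusted p = 0.014). With the Dap side as a block all 3 passed, at 0.70, 0.77 and 1.09. Against glands before activation alone Erbb3 stood at 0.52 (adjusted p = 0.186) and Tgfa at 0.80 (adjusted p = 0.0599), and without the arrays high in T cell markers Erbb3 stood at 0.70 (adjusted p = 0.0897). Without the 4 arrays high in muscle markers Erbb3 stood at 0.74 ± 0.23 (adjusted p = 0.0605) and Tgfa at 0.76 ± 0.25 (adjusted p = 0.0823).

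The remaining ligand genes measured were Epgn, Nrg2, Nrg3 and Nrg4. Nrg4, a neuregulin that binds Erbb4 and is known from fat tissue, was lower at 2M and 3M (-1.54 ± 0.39, adjusted p = 0.0127), at 4M and 5M (-1.61 ± 0.47, adjusted p = 0.0257) and in tumours (-6.89 ± 0.56, adjusted p = 3.46e-07). The tumours measured 2.02, 2.13, 4.71, 3.61 and 3.57 against 8.09 to 11.84 in controls, with no overlap and with every tumour under the line. The control groups themselves differed, with means of 10.66 in wild type glands and 9.54 before activation. Against glands before activation alone the Nrg4 differences in glands did not pass, at -0.98 ± 0.45 for 2M and 3M (adjusted p = 0.152) and -1.05 ± 0.59 for 4M and 5M (adjusted p = 0.268), while that in tumours was -6.34 ± 0.65 (adjusted p = 0.000221). Of 9 adipocyte markers, 7 passed as lower in the 2M and 3M glands, 6 in those of 4M and 5M, and 9 in tumours, and their part in the Nrg4 difference was not tested. Nrg2 and Nrg3 lay under the line and did not pass.

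Among 6 genes of ligand release, 1 was higher and 2 lower in the 2M and 3M glands. The counts were 1 and 1 in the 4M and 5M glands, and 2 and 1 in the invasive tumours. Of all tested probe sets, 5.36% were higher and 6.53% lower in the first comparison, 7.80% and 7.02% in the next, and 18.8% and 14.4% in tumours, so the tumour count was close to the background. Rhbdf2, an iRhom that carries the protease Adam17 to the cell surface, was higher in all 3 comparisons, by 1.02 ± 0.27, 1.22 ± 0.26 and 1.99 ± 0.36. Its relative Rhbdf1 was higher in tumours by 0.67 ± 0.14. The protease gene Adam12 was lower in all 3, by -0.87 ± 0.25, -0.84 ± 0.26 and -1.30 ± 0.35, and Adam10 was lower at 2M and 3M (-0.28 ± 0.08).

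Of 10 adaptor and RAS-MAPK genes measured, 1 was higher and 3 lower in tumours, namely Nras (1.01 ± 0.11) against Braf (-0.53 ± 0.15), the adaptor Shc1 (-0.54 ± 0.16) and the exchange factor Sos2 (-0.71 ± 0.25). These counts stand beside 18.8% higher and 14.4% lower over all tested probe sets. Nras was also higher at 2M and 3M and at 4M and 5M, by 0.35 in both. Of 9 PI3-kinase and AKT genes, 1 was higher and 4 lower in tumours, beside the same background, where Akt1 stood at 0.80 ± 0.16, Akt2 at -1.61 ± 0.17, the regulatory subunit Pik3r1 at -1.70 ± 0.36 and Mtor at -0.53 ± 0.18. Akt2, which is prominent in insulin-responsive tissues, was also lower at 2M and 3M (-0.75 ± 0.15) and at 4M and 5M (-0.73 ± 0.23).

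Among negative regulators and transcriptional targets of the pathway, all members that passed in tumours were higher. Of 20 negative regulators, 3 were higher and 3 lower at 2M and 3M, 5 and 2 at 4M and 5M, and 10 and 0 in tumours, while the other 10 did not pass there. All tested probe sets gave 5.36% higher and 6.53% lower, 7.80% and 7.02%, and 18.8% and 14.4% in the same comparisons. The median of the 20 in tumours was 0.46, against 0.00 over all tested probe sets. It was 0.04 at 2M and 3M and 0.17 at 4M and 5M, against 0.01 over all tested probe sets in both. All 20 regulators had a mean of at least 5, whereas 52.2% of all tested probe sets lay under that line. Over the tested probe sets above the line the median in tumours was 0.08. The shares over all tested probe sets also include those under the line. The regulators named next are higher ones, and those that were lower in glands are not named. Dusp5, a phosphatase that acts on ERK, was higher by 1.92 ± 0.39, 2.54 ± 0.42 and 2.92 ± 0.54 in the 3 comparisons. Errfi1, an inhibitor that binds the Egfr kinase domain, was higher by 0.68 ± 0.20 at 2M and 3M and by 1.26 ± 0.22 in tumours, and the feedback regulator Spry2 by 1.15 ± 0.26 at 4M and 5M. Of 9 transcriptional targets, 1 was higher at 2M and 3M and at 4M and 5M, and 7 were higher in tumours, beside the same shares, with a median of 2.13. The gene in both glandular comparisons was Phlda1, which stood at 1.33 ± 0.39, 1.49 ± 0.30 and 2.67 ± 0.45. In tumours the immediate early gene Ier3 was higher by 3.08 ± 0.47 in 5 of 5, and the ETS factors Etv5 and Etv4 by 3.15 ± 0.63 and 3.22 ± 0.69 in 4 of 5. Ier3 was also the gene whose pattern over the 40 arrays was most like that of Hbegf (r of 0.91). These genes answer to many signals besides this receptor family, and 7 of 7 markers of dividing cells passed as higher in the same 3 comparisons.

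The genes most like the receptors in pattern were Plxnb2, Ctc1 and Fhdc1 for Erbb2 (r of 0.92, 0.91 and 0.91), Arhgef5, Esrp2 and Irx2 for Erbb3 (0.89 each), and Antxr1, Smarca1 and Fat4 for Egfr (0.88, 0.87 and 0.86). For Tgfa they were Il1b, Tcof1 and Acsl4 (0.93, 0.91 and 0.91), and for Ereg Atg9b, Comp and Megf6 (0.93, 0.93 and 0.91). All were computed over the same 40 arrays, in which the group and the tissue makeup are shared, and are given as descriptions without a test.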

How the data were processed

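Tissue of 40 mice was hybridised to 1 Affymetrix mouse genome array each, after 2 rounds of amplification from 50 ng of RNA. The authors summarised probe sets with GCRMA in GeneSpring GX. The deposited intensity table is linear, and the deposited log2 table holds the same values less the row median of all arrays, and both differed by at most 1.04e-06. Each array was assigned to its mouse through the log2 table and the median of the log2 intensities was added back, with no further normalization.

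Of 45101 probe sets, 64 controls were left out. A gene was represented by the brightest probe set with that symbol alone (34945 had 1 symbol, 932 several, 9160 none, and 34741 matched RefSeq names of GRCm38.p6). Comparisons were limma 3.58.1 fits (R 4.3.3) of the groups compared, two-sided, with Benjamini-Hochberg adjustment over 45037 probe sets. The fits were tested on simulated data in which a probe set had the same spread in every group. In the measured data Ereg had an SD of 3.72 in tumours and at most 0.47 in any other group. The simulation does not cover such unequal spreads. The methods' t-test (Welch) was an alternative. Up to 4 genes per pathway or marker list were drawn in each comparison by smallest p, and not all genes drawn are named. The members and lists were chosen with earlier results of these data known. The files name no genome build. The number of arrays limits precision. Alternatives covered the test, normalization, offset, filter, floor, probe set, control group and left-out arrays. T-antigen RNA was not analysed here.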

Additional observations from a re-analysis of the deposited data

Results flagged for a closer look

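In 14 of the 80 sets of 5 arrays (10 genes in 8 groups), the highest or lowest array was further from the rest than Dixon's critical value of 0.71 allows; chance gives about 1 in 20 such sets. Among tumours, Erbb2 was high in replicate 4 (8.98, next 7.84), Erbb3 in replicate 3 (13.58, next 13.02) and Nrg1 in replicate 1 (3.10, next 3.04). At 3M, replicate 1 was high in Hbegf (10.08, next 6.31) and in Nrg1 (4.28, next 3.36). Without that gland the Hbegf difference between 1M and the glands of 2M and 3M moved from -0.43 to 0.01.

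Hbegf was further apart at 1M in replicate 4 (6.08, next 5.65) and at 4M in replicate 5 (5.61, next 5.48). Egf was high before activation in replicate 4 (4.95, next 2.81), an array high in muscle markers, and at 3M in replicate 2 (3.26, next 2.92), and was low at 1M in replicate 3 (2.39, next 2.78). Ereg was high before activation in replicate 5 (3.52, next 3.01), at 2M in replicate 1 (3.35, next 2.96), at 3M in replicate 4 (3.90, next 2.99) and at 4M in replicate 1 (3.95, next 2.93). The Egf, Ereg and Nrg1 values given here lie under 5, where the order of levels is to be read with caution.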

How the results depend on the processing

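Of the 80 differences (10 genes in 8 comparisons), 17 passed, and none of these 17 changed direction under any alternative. The larger changes in the counts of genes that passed were as follows, with some smaller ones named after them. The higher count at 2M and 3M went from 0 to 1 with the mean of all probe sets (Tgfa) and with glands before activation alone as controls (Erbb4, at 0.20), and the lower count from 0 to 1 with the mean of all probe sets (Egfr) and with wild type alone (Erbb4, at -0.23). The higher count at 4M and 5M went from 3 to 1 with the high Dap arrays, with glands before activation alone and without the arrays high in muscle markers. The higher count in tumours against 4M and 5M went from 5 to 2 with the methods' t-test and without the arrays high in muscle markers, to 3 with the high Dap arrays and with the Dap side as a block, and lay between 3 and 5 when 1 array was left out. The methods' t-test also took the lower count from 2 to 1 in both tumour comparisons. Tumours against 4M and 5M also lost Erbb2 with an offset of 16 (adjusted p = 0.0515) and with a floor at 5 (0.0618). Erbb2 was lost there without arrays high in epidermis markers too (0.0599), and Ereg without arrays high in T cell markers (0.0599). Against controls, tumours lost Ereg by the methods' t-test and with either control group alone, as given above. At 1M against controls the higher count became 1 with wild type alone and lay between 0 and 1 when 1 array was left out (Erbb3 without before activation replicate 1), and the lower count became 1 among probe sets with a mean of at least 5 (Btc). The higher count at 1M against 2M and 3M became 1 with the mean of all probe sets (Egfr), and the lower count before activation became 1 with the methods' t-test and with 1 fit of all 8 groups (Erbb4). The cause of these changes was not tested, and some of the alternatives also use fewer arrays or probe sets. At the study's threshold, both tumour comparisons passed 4 genes in place of 2 without tumour replicate 3 or 5, and 1 with the methods' t-test or the mean of all probe sets (against controls, also with before activation alone). Against controls, Btc also passed that threshold without tumour replicate 4, at -2.35. Calls gained elsewhere were Hbegf at 4M and 5M with the mean of all probe sets (0.32), Erbb4 in tumours with wild type alone (-0.34), Nrg1 in tumours with before activation alone (0.17) and Egf in tumours against 4M and 5M with 1 fit of all 8 groups (-1.66). The labels do not say whether replicate numbers mark a pairing or a batch. The mean correlation between same-numbered arrays was 0.06 over 140 pairs, with a range of -0.47 to 0.68, against a mean of -0.01 between others. Of the 140 pairs, 65 exceeded 0.1. Among arrays of other groups, 16 of 40 arrays correlated best with one of their own number. The source of this was not tested. With the number as a replicate block, the tumour difference of Erbb2 against 4M and 5M, 0.75, no longer passed (adjusted p = 0.0773).

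The other direction changes concerned differences that did not pass in the main comparison, of which 81 settings reversed the sign. Erbb4 at 2M and 3M became 0.20 (before activation alone), 0.01 (without arrays high in epidermis markers) and 0.00 (high Dap arrays, Dap block). Elsewhere Erbb4 became 0.16 at 4M and 5M and 0.09 in tumours with before activation alone, -0.15 at 1M with wild type alone, 0.02 (high Dap arrays, Dap block) and 0.00 (without muscle-high arrays) in tumours against 4M and 5M, and -0.06 and -0.04 for the slope with the same settings. Nrg1 became -0.08 at 4M and 5M and -0.06 in tumours with wild type alone, -0.01 in tumours without T cell-high arrays, and -0.01 (quantile normalization) and -0.03 (without T cell-high arrays) in tumours against 4M and 5M. Egf at 2M and 3M became 0.09 (wild type alone) and 0.14 (without muscle-high arrays), and before activation -0.12 (without muscle-high arrays). Btc became 0.12 at 2M and 3M and 0.15 at 4M and 5M without T cell-high arrays, and 0.03 at 4M and 5M with the mean of all probe sets. Egfr at 4M and 5M became 0.01 (wild type alone) and 0.02 (without muscle-high arrays). Ereg at 4M and 5M became -0.05 without epidermis-high arrays, and its slope 0.04 (high Dap arrays, Dap block) and 0.01 (without muscle-high arrays). Without T cell-high arrays, Erbb3 at 1M against 2M and 3M became -0.46 and the slopes of Egfr and Erbb3 became -0.12 and -0.08. For before activation against wild type, quantile normalization gave -0.02 for Erbb2, -0.06 for Btc and -0.14 for Tgfa, the mean of all probe sets -0.10 for Btc and -0.02 for Tgfa, the high Dap arrays -0.06 for Egfr, -0.07 for Ereg, -0.03 for Btc and -0.32 for Tgfa, leaving out muscle-high arrays -0.02 for Tgfa, and leaving out T cell-high arrays -0.06 for Ereg, -0.05 for Btc and -0.11 for Tgfa. With 1 array left out, the ranges that crossed 0 were, at 2M and 3M, -0.05 to 0.02 (Erbb4), -0.13 to 0.14 (Egf) and -0.04 to 0.11 (Ereg), and at 4M and 5M -0.15 to 0.01 (Egfr), -0.07 to 0.09 (Ereg) and -0.10 to 0.05 (Btc). They were 0.00 to 0.04 for Nrg1 in tumours against 4M and 5M, and -0.52 to 0.01 (Hbegf) and -0.10 to 0.07 (Nrg1) at 1M against 2M and 3M. For before activation they were 0.00 to 0.38 (Egfr), -0.12 to 0.50 (Egf), -0.06 to 0.10 (Ereg), -0.02 to 0.15 (Btc) and -0.15 to 0.22 (Tgfa), and for the slope -0.03 to 0.02 (Erbb4) and -0.02 to 0.01 (Ereg). The alternatives without arrays high in markers, the Dap block and the single control groups for Nrg4 were chosen after seeing the data.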
